A study of Trachemys scripta with 4 samples.

Results

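The Hedgehog pathway was examined in the peripheral nerves of embryos of the turtle *Trachemys scripta* at stage 21 (st.21) and stage 19 (st.19). The genes were chosen by symbol, as the ligands DHH, SHH and IHH, the receptor PTCH1, the ligand-binding protein HHIP, the transducer SMO and the transcription factors GLI1, GLI2 and GLI3. Of these 9 genes, 7 were measured among 15289 genes, and DHH and GLI1 were not analysed here. The st.21 embryo was chosen in the study as one with color and a developed look, and the st.19 embryo as one that did not yet look like a turtle. Both came from eggs laid after oxytocin injection of the mother and incubated in damp vermiculite. Parts of the brachial and sacral plexus were combined for RNA, since single nerves gave too little. Each stage was 1 sample, present as 2 columns named replicate 1 and replicate 2. Whether these are separate libraries, repeat runs of the same RNA or reads of the same fragments is not known. A supplementary overview of the study lists a pair of st.21 RNA samples, and which of them the st.21 columns hold is not known either. The study names surrounding tissue as a possible admixture of these dissections.

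Hedgehog ligands are lipid-modified secreted proteins. Without ligand, PTCH1 holds SMO inactive, and binding of ligand to PTCH1 and its co-receptors GAS1, CDON and BOC releases SMO, which acts in the primary cilium on the GLI proteins. In mammals PTCH1, HHIP and GLI1 are themselves raised by the pathway, so that PTCH1 and HHIP limit it. In mouse nerves, Schwann cells make DHH, and the mesenchymal cells that form the perineurium, the sheath around nerve fascicles, receive it.

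The reads on genes were 2229177 and 2129599 at st.21 and 4353821 and 4241655 at st.19. Among genes holding 5 to 500 reads, same-stage columns lay closer together than repeated sampling of reads would put them, so they were not independent samplings. For these genes the mean chi-square was 0.330 at st.21 and 0.433 at st.19, with 1 as its value for independent sampling. Among the 7 Hedgehog genes its highest value was 0.981, for SMO at st.21. Column depths for the chi-square left out the rRNA gene LOC117869916, whose share differed between same-stage columns. Each stage was accordingly treated as 1 sample, no p-value is given, and the spread between embryos is not known. Levels are in TPM, reads per gene length scaled to a sum of 1000000 in each column. The rRNA gene LOC117869916 held 0.145% and 0.317% of that sum at st.21 and 18.9% and 44.2% at st.19, so that replicate 1 of st.19 exceeded replicate 2 of st.19 by a log2 difference of 0.53 at the median gene. The median log2 change of all genes, st.21 minus st.19, was 0.06 as deposited and −0.52 with that gene left out of the sum. Intervals (95%) come from the reads of a pair of same-numbered columns on the deposited scale and cover counting error only.

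Of the 7 Hedgehog genes, 6 had higher TPM in both st.21 columns than in both st.19 columns, and PTCH1 had lower TPM in both, where 38.9% of all genes were higher and 31.9% lower in this sense. Those counts are on the deposited scale. By the sign of the log2 change with the rRNA gene out of the sum, 4 of the 7 were higher at st.21 and 3 lower. Of 15225 genes past the filter, 4555 were then higher and 10670 lower. With a log2 change of 1 as the size that counts, SMO and GLI2 were above 1, against 17.3% of 15100 genes, and 0 genes were below −1, against 9.68% of genes. Leaving out st.19 replicate 2, the column with most rRNA, left 0 genes above 1 and put PTCH1 below −1, while leaving out st.19 replicate 1 put 4 above 1. Over all 15100 genes the same omissions gave 1735 above 1 and 2393 below −1 without st.19 replicate 2, and 3800 above 1 and 920 below −1 without st.19 replicate 1. With the rRNA gene out of the sum there were 0 above 1 and 1, PTCH1, below −1, where 1070 of 15225 genes past the filter were above 1 and 4183 below −1. The median log2 change of the 7 genes was 0.67 and that of all 15100 genes 0.06, or 0.11 and −0.52 over the 15225 genes without the rRNA gene in the sum. In bulk tissue, fewer cells of a type and less RNA per cell cannot be told apart.

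**Figure D1:**
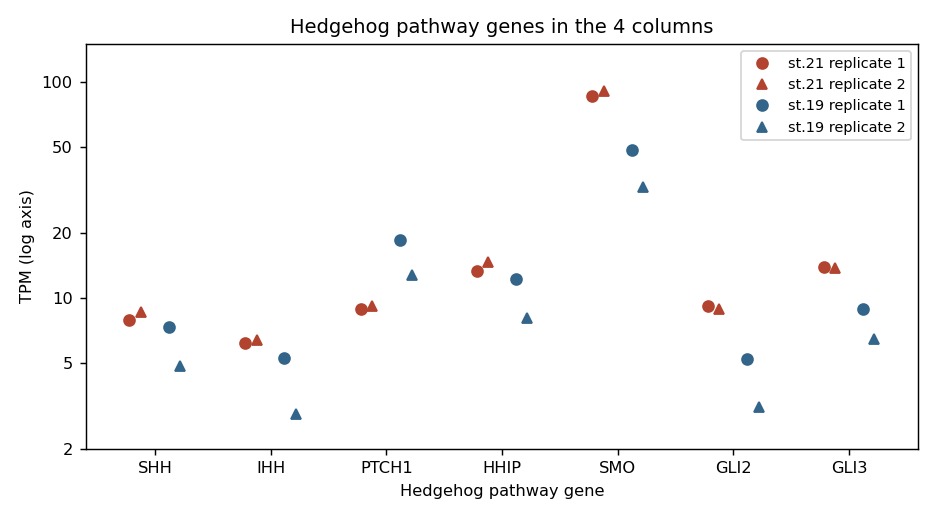
TPM on a log axis of the 7 Hedgehog pathway genes in the 2 columns of st.21 (red) and the 2 columns of st.19 (blue), with circles for replicate 1 and triangles for replicate 2. SMO stood above the other genes at 86.1 and 91.2 TPM at st.21 and 48.6 and 32.5 TPM at st.19, and PTCH1 was the gene with lower TPM at st.21.

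PTCH1, the receptor that binds the ligands and inhibits SMO, lies on chromosome 6 from 84320529 to 84409264 of the CAS_Tse_1.0 assembly. It had 8.87 and 9.20 TPM at st.21, against 18.5 and 12.8 TPM at st.19, from 65 reads in each st.21 column and 283 and 270 reads in the st.19 columns. Both st.21 columns were below both st.19 columns, by a log2 change of −0.77. The change between the replicate 1 columns was −1.07 (interval −1.48 to −0.68) and that between the replicate 2 columns −0.49 (interval −0.90 to −0.09). PTCH1 was lower at st.21 under every scaling tried, between −1.34 and −0.70, and came to −0.80 with each column centred on its median log2 TPM. Its change stood at percentile 14.8 of all genes.

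HHIP, a membrane protein that binds the ligands without signalling, lies on chromosome 5 from 53026858 to 53122645. It had 13.3 and 14.6 TPM at st.21 and 12.3 and 8.06 TPM at st.19, from 49 and 52 reads against 93 and 84 reads. The st.21 columns were higher by a log2 change of 0.49, but the interval between the replicate 1 columns, −0.40 to 0.64, included 0, and the sign turned to −0.08 with the rRNA gene out of the sum and −0.04 with protein-coding genes only. The replicate 2 pair gave 0.87 (interval 0.35 to 1.39), which lay above 0 on the deposited scale. That scale includes the rRNA gene, at 18.9% and 44.2% of the sum in the st.19 columns. The HHIP reads of same-stage columns had a chi-square of 0.280 at st.21 and 0.093 at st.19. Since same-stage columns were not independent samplings, these low values are no separate check of the HHIP change.

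SMO, the membrane protein that passes the signal on, lies on chromosome 1 from 4407877 to 4438421 and was the best measured of the 7 genes. It had 86.1 and 91.2 TPM at st.21, against 48.6 and 32.5 TPM at st.19, from 453 and 462 reads against 528 and 486 reads. The st.21 columns did not overlap the st.19 columns, and the log2 change was 1.16, a fold of 2.23. It was 0.83 between the replicate 1 columns (interval 0.65 to 1.01) and 1.49 between the replicate 2 columns (interval 1.31 to 1.68). It ran from 0.59 to 1.22 over the scalings, with 1.13 where each column was centred on its median log2 TPM. SMO was at percentile 88.5 of all genes by level at st.21 and 76.8 at st.19.

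GLI2, which acts mainly as the activator of target genes in mammals, lies on chromosome 11 from 7419049 to 7668431. It had 9.20 and 8.84 TPM at st.21, against 5.21 and 3.11 TPM at st.19, from 66 and 61 reads against 76 and 62 reads. The log2 change was 1.16, with 0.85 between the replicate 1 columns (interval 0.35 to 1.34), and it ran from 0.60 to 1.23 over the scalings. GLI3, which acts mainly as a repressor when ligand is lacking, lies on chromosome 2 from 91300272 to 91559068. It had 13.9 and 13.8 TPM at st.21, against 8.89 and 6.46 TPM at st.19, from 137 and 131 reads against 181 reads in each st.19 column. Its log2 change of 0.86 was smaller in size than that of GLI2, with 0.65 between the replicate 1 columns (interval 0.32 to 0.98), so that the intervals of both genes overlapped. GLI2 and GLI3 kept the higher level at st.21 under every scaling.

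The ligands had the lowest mean TPM of the 7 genes at st.21, and neither had an interval clear of 0 in both pairs of columns. SHH, the ligand of the notochord, floor plate and limb bud margin, lies on chromosome 2 from 18282293 to 18304299. It had 7.87 and 8.57 TPM at st.21 and 7.35 and 4.86 TPM at st.19, from 39 and 41 reads against 75 and 68 reads. The log2 change of 0.46 had an interval of −0.49 to 0.68 around the replicate 1 change of 0.11, and it turned to −0.11 with the rRNA gene out of the sum and −0.07 with protein-coding genes only. For SHH the replicate 2 pair gave 0.84 (interval 0.24 to 1.42) on the deposited scale, which includes the rRNA gene. The SHH reads of same-stage columns had a chi-square of 0.184 at st.21 and 0.063 at st.19, which is no separate check either, as these columns were not independent samplings. IHH, the ligand of growth cartilage, lies on chromosome 11 from 571065 to 572348, and its counted length of 1284 nt equals the span of the annotated gene. It had 6.16 and 6.35 TPM at st.21 and 5.29 and 2.91 TPM at st.19, from 6 reads in each st.21 column and 10 and 7 reads in the st.19 columns. At these reads a difference was not detectable, since the interval between the replicate 1 columns ran from −1.43 to 1.92.

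**Figure D2:**
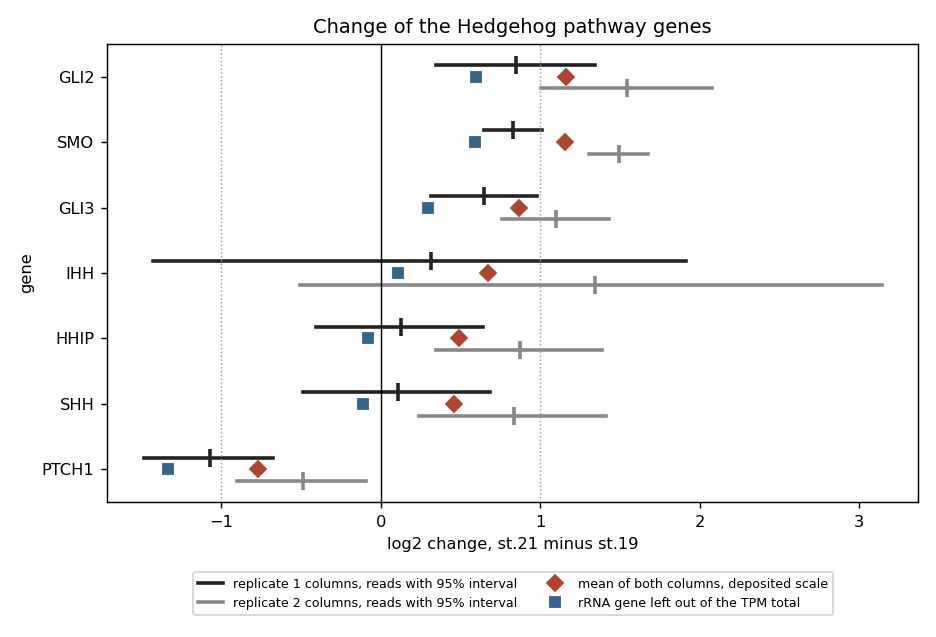
Log2 change (st.21 minus st.19) of the 7 Hedgehog pathway genes, with the mean of both columns on the deposited scale (red diamonds), the value with the rRNA gene left out of the TPM sum (blue squares) and the changes between same-numbered columns with 95% intervals from reads (black for replicate 1, grey for replicate 2); dotted lines mark −1 and 1. On the deposited scale the intervals of PTCH1 lay below 0 and those of SMO, GLI2 and GLI3 above 0 in both pairs. The interval of IHH included 0 in both. The pairs are not independent of each other, and no intervals were worked out with the rRNA gene out of the sum.

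By level, PTCH1 was the fourth of the 7 genes at st.21 and the second at st.19. At st.21 the order by mean TPM was SMO with 88.7, HHIP with 14.0, GLI3 with 13.8, PTCH1 with 9.03, GLI2 with 9.02, SHH with 8.22 and IHH with 6.25. At st.19 it was SMO with 40.6, PTCH1 with 15.6, HHIP with 10.2, GLI3 with 7.68, SHH with 6.10, GLI2 with 4.16 and IHH with 4.10. Going by the reads per length of replicate 1, the st.21 neighbours HHIP and GLI3, PTCH1 and GLI2, GLI2 and SHH, and SHH and IHH did not differ beyond counting error, and neither did the st.19 neighbours GLI3 and SHH, or GLI2 and IHH. PTCH1 exceeded HHIP by a ratio of 1.54 at st.19 (interval 1.21 to 1.97), while GLI3 exceeded PTCH1 by 1.58 at st.21 (interval 1.17 to 2.15).

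Ratios of genes within a column do not change where each column is scaled by 1 factor, as in every scaling here but quantile normalization. PTCH1 was taken as the base after its values were seen, and as the gene that was lower at st.21 it raises the ratio of every other member by construction. A gene with the median change of all 15100 genes would have a ratio to PTCH1 that is 1.81-fold higher at st.21 between the replicate 1 columns and 1.75-fold higher between the replicate 2 columns. SMO stood at 9.71 and 9.91 times the TPM of PTCH1 in the st.21 columns, against 2.63 and 2.54 times in the st.19 columns. From the reads of replicate 1 this SMO ratio was 3.73-fold higher at st.21 (exact conditional interval 2.76 to 5.11). GLI2 stood at 1.04 and 0.960 times PTCH1 at st.21, against 0.282 and 0.243 times at st.19, a 3.77-fold higher ratio (interval 2.41 to 5.91). For GLI3 the ratio was 3.29-fold higher (interval 2.29 to 4.75), for HHIP 2.29-fold (interval 1.44 to 3.63) and for SHH 2.26-fold (interval 1.37 to 3.71). For IHH it was 2.60-fold with an interval of 0.750 to 8.25, which included 1. The intervals of SMO, GLI2 and GLI3 lay above the value of the median gene, and those of HHIP, SHH and IHH included it. The same-numbered replicate 2 columns gave folds between 2.50 and 4.07 for these 6 genes. These intervals compare the libraries and not embryos of the stages.

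**Figure D3:**
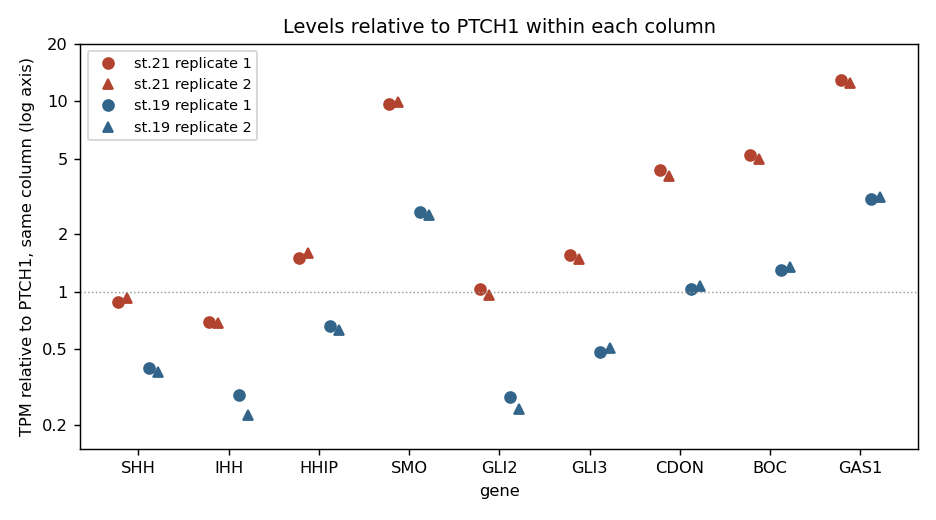
TPM of 6 Hedgehog pathway genes and of the co-receptors CDON, BOC and GAS1 divided by the TPM of PTCH1 in the same column, on a log axis, for the 2 columns of st.21 (red) and of st.19 (blue); the dotted line marks a ratio of 1. Every st.21 ratio lay above both st.19 ratios of its gene, with SMO at 9.71 and 9.91 against 2.63 and 2.54. PTCH1, chosen as the base after its values were seen, was lower at st.21, which raises these ratios by construction. A gene with the median change of all genes would be 1.81-fold higher between the replicate 1 columns and 1.75-fold between the replicate 2 columns.

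The co-receptors of PTCH1 were higher at st.21 and close to SMO in their change. A list of 7 further receptors and ligand-binding proteins had 4 measured genes. Of these, 3 had a log2 change above 1 and 0 below −1, beside 17.3% and 9.68% of all genes. With the rRNA gene out of the sum 0 were above 1, beside 1070 of 15225 genes past the filter. GAS1, a membrane-anchored co-receptor, had 115 TPM in both st.21 columns, against 56.8 and 40.4 TPM at st.19, a log2 change of 1.26. CDON had 38.7 and 37.4 TPM at st.21, against 19.1 and 13.8 TPM at st.19, a log2 change of 1.23. BOC, related to CDON, had 46.4 and 46.1 TPM at st.21, against 24.0 and 17.2 TPM at st.19, a log2 change of 1.19. Both st.21 columns of these 3 co-receptors lay above both st.19 columns, where 38.9% of all genes were higher and 31.9% lower in this sense. Their replicate 1 intervals lay between 0.66 and 1.31. The 3 genes kept the direction under every scaling, at 0.62 to 0.69 where lowest. HHIPL1, named for its likeness to HHIP, had 9.12 and 10.4 TPM at st.21 and 12.2 and 8.58 TPM at st.19, and these overlapped. Relative to PTCH1 in the same column, GAS1 came to 13.0 and 12.5 times at st.21, against 3.07 and 3.16 times at st.19.

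Genes listed for adding lipid to the ligands, or for releasing or binding them outside the receiving cell, had a median log2 change of −0.38 over 8 genes. Of these 1 was above 1 and 1 below −1, beside 17.3% and 9.68% of all genes, whose median was 0.06. With the rRNA gene out of the sum 0 of the 8 were above 1 and 4 below −1, and the median was −0.95. Of all 15225 genes past the filter, 1070 were then above 1 and 4183 below −1, with a median of −0.52. DISP2, a relative of the release protein DISP1, had 1.83 and 2.12 TPM at st.21, against 10.1 and 7.16 TPM at st.19, from 7 and 8 reads against 91 and 89 reads, a log2 change of −2.11. SCUBE2, a secreted carrier of the ligands in mammals and zebrafish, was at 2.01 and 1.82 TPM at st.21 and 0.810 and 0.749 TPM at st.19, from 7 and 6 reads against 4 and 6 reads, and its replicate 1 interval of −0.12 to 4.08 included 0. SCUBE1 had 22.6 and 23.9 TPM at st.21 and 38.0 and 26.9 TPM at st.19, a log2 change of −0.46. DISP3, like DISP2 a relative of DISP1, had 48.4 and 48.1 TPM at st.21 and 63.7 and 44.2 TPM at st.19. It was the most expressed of this list, and its columns overlapped. A part of DISP2 or DISP3 in ligand release was not tested.

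Between SMO and the GLI proteins, 25 measured genes of a list of 27 covered the cytoplasm and the cilium. Their median log2 change was −0.13, with 2 above 1 and 1 below −1, beside 17.3% and 9.68% of all genes. With the rRNA gene out of the sum their median was −0.70, with 0 above 1 and 9 below −1. Of all 15225 genes past the filter, 1070 were then above 1 and 4183 below −1, with a median of −0.52. Without st.19 replicate 1 the sign of the median of the 25 genes turned, to 0.11, where that of all genes was 0.33. STK36, the relative of the fly kinase Fused, had 15.2 and 14.3 TPM at st.21, against 6.53 and 4.56 TPM at st.19, a log2 change of 1.43. MGRN1, a ubiquitin ligase that lowers SMO at the surface of mouse cells, had 236 and 233 TPM at st.21, against 140 and 94.9 TPM at st.19, a log2 change of 1.02. KIF3A, a motor subunit that builds cilia and carries cargo in axons, had 42.2 and 42.9 TPM at st.21, against 112 and 78.5 TPM at st.19, a log2 change of −1.14. CSNK1A1 and GSK3B, kinases that phosphorylate the GLI proteins, were the most expressed of the remaining genes with CSNK1A1 at 157 TPM in both st.21 columns and 206 and 146 TPM at st.19, and GSK3B at 127 and 125 TPM at st.21 and 189 and 137 TPM at st.19. GSK3B had a log2 change of −0.35 and CSNK1A1 one of −0.14. Summed TPM of the 7 measured neuron markers, led in level by NEFL, TUBB3 and STMN2, was 3256 and 3362 at st.21, against 5051 and 3556 at st.19. Of the 7, 3 were below −1, beside 9.68% of all genes, and the median was −0.74. Leaving the rRNA gene out of the sum put 5 below −1, beside 4183 of 15225 genes. The median of the neuron markers was then −1.31, and that of all genes −0.52. NEFL, a neurofilament protein, went against the sum, with 1282 and 1365 TPM at st.21 and 1187 and 863 TPM at st.19, a log2 change of 0.39 that turned to −0.58 at the lowest of the scalings. The part of neuronal RNA in the values of DISP2, KIF3A and PTCH1 was not tested.

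**Figure D4:**
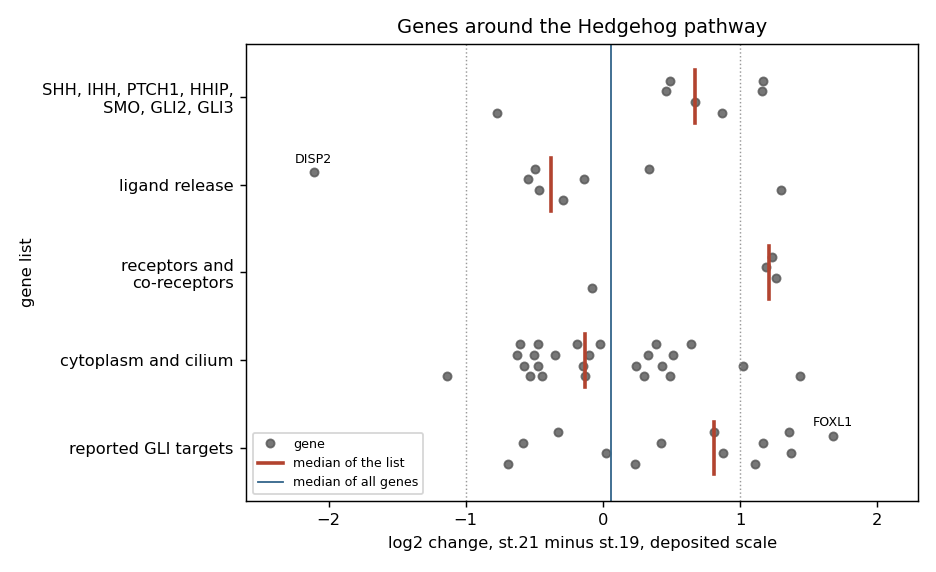
Log2 change (st.21 minus st.19, deposited scale) of single genes (grey points) by list, with the median of each list (red bar), the median of all genes (blue line) and dotted lines at −1 and 1. The receptors and co-receptors, with a median of 1.21, lay to the right of the ligand release genes, with −0.38, and of the genes of cytoplasm and cilium, with −0.13.

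Genes reported in mammals as raised by the pathway in some tissue had a median log2 change of 0.81 over 13 measured genes of a list of 16. Of these, 5 were above 1 and 0 below −1, beside 17.3% and 9.68% of all genes, whose median was 0.06. FOXL1 and FOXC2, forkhead factors of mesenchyme that overlap each other in the annotation, so that reads could belong to either, had log2 changes of 1.67 and 1.35. FOXC2 had 9.83 and 11.2 TPM at st.21, against 4.93 and 3.41 TPM at st.19, and FOXL1 rested on 19 and 18 reads against 13 and 12 reads. OSR1, a factor of mesenchyme and connective tissue, had 77.0 and 73.4 TPM at st.21, against 34.3 and 24.7 TPM at st.19, a log2 change of 1.37. FOXM1 and MYCN, factors of dividing cells, had log2 changes of 1.17 and 1.11. FOXM1 had 22.2 and 23.0 TPM at st.21, against 11.7 and 8.68 TPM at st.19, and MYCN had 30.9 and 33.3 TPM at st.21, against 17.7 and 12.4 TPM at st.19. With the rRNA gene out of the sum 1 of the 13 genes, FOXL1, stayed above 1, and 2, JAG2 and BCL2, were below −1. Of all 15225 genes past the filter, 1070 were then above 1 and 4183 below −1. The median was then 0.24 for the 13 genes and −0.52 for all genes. JAG2 had 29.3 and 30.2 TPM at st.21, against 57.1 and 40.6 TPM at st.19, a log2 change of −0.69 as deposited. BCL2 had 9.76 and 10.1 TPM at st.21, against 18.1 and 12.3 TPM at st.19, a log2 change of −0.58 as deposited. SFRP1, a secreted Wnt antagonist, was the most expressed, with 239 and 240 TPM at st.21 and 362 and 250 TPM at st.19, a log2 change of −0.33. CCND1, a cyclin, had 70.3 and 67.7 TPM at st.21 and 70.7 and 48.7 TPM at st.19, and its sign turned between scalings, from −0.34 to 0.30.

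Cells that receive or send Hedgehog signals were checked by their markers. Of the 8 Schwann cell markers, 6 were higher and 2 lower in both st.21 columns, beside 38.9% and 31.9% of all genes. With the rRNA gene out of the sum the log2 change was higher for 6 and lower for 2, beside 4555 and 10670 of 15225 genes. FOXD3, a factor of neural crest and early glia, had 487 and 437 TPM at st.21 and 264 and 174 TPM at st.19. The lower markers were S100B, a calcium-binding protein of glia, with 94.0 and 87.2 TPM at st.21 and 145 and 98.8 TPM at st.19, and the cadherin CDH19 with 59.2 and 58.9 TPM at st.21 and 88.7 and 61.2 TPM at st.19. The 8 measured perineurium markers summed to 277 and 278 TPM at st.21 and 194 and 139 TPM at st.19, and the most expressed were MOXD1, KLF5 and TJP1. Of the 7 past the filter, 4 were above 1, beside 17.3% of all genes. Without st.19 replicate 2 there were 2, beside 1735 of 15100 genes. With the rRNA gene out of the sum there were 0 of 8, beside 1070 of 15225 genes. Protein-coding genes only gave 0 of 8, beside 1045 of 14368 genes. KLF5, a transcription factor, had 59.9 and 60.0 TPM at st.21, against 31.5 and 22.2 TPM at st.19, while TJP1, a tight junction protein, had 32.7 and 33.6 TPM at st.21 and 42.5 and 30.2 TPM at st.19, which overlapped.

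Markers of other tissues differed between the samples of the stages as well. With 1 sample per stage, a difference of stage and one of the tissue dissected cannot be told apart. The 8 fibroblast markers, led by COL1A1, COL3A1 and COL1A2, summed to 27989 and 27659 TPM at st.21, against 5968 and 4054 TPM at st.19. These collagens made up most of the sum. Of the 8, 5 were above 1, beside 17.3% of all genes. With the rRNA gene out of the sum 4 were above 1 and 1 was lower, beside 1070 and 10670 of 15225 genes. PDGFRA had 45.0 and 45.1 TPM at st.21 and 49.4 and 33.8 TPM at st.19, which overlapped. The 6 skeletal muscle markers, led by ACTA1, TNNC2 and CKM, summed to 2272 and 2244 TPM at st.21, against 82.1 and 52.7 TPM at st.19. The 6 endothelium markers, led by CDH5, ESAM and EGFL7, summed to 133 and 138 TPM at st.21, against 69.5 and 48.9 TPM at st.19. The part of these tissues in the higher SMO, GLI2, GLI3 and co-receptor levels was not tested.

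Markers of the known sources of IHH and SHH were set beside the ligands. The 8 measured markers of cartilage and bone had a median log2 change of 0.33, with 3 above 1, beside 17.3% of all genes. With the rRNA gene out of the sum the median was −0.23 and 5 of 8 were lower, beside 10670 of 15225 genes. COL2A1, the main collagen of cartilage, had 5128 and 5066 TPM at st.21, against 1579 and 1076 TPM at st.19, and made up nearly all of the list's summed TPM. SOX9, a factor of cartilage and glia, had 13.4 and 12.3 TPM at st.21 and 12.8 and 9.04 TPM at st.19, and IBSP, a bone matrix protein, had 15 reads in each st.21 column and 0 reads in each st.19 column. Of the floor plate and notochord markers, SLIT1 had 46.2 and 46.0 TPM at st.21 and 28.0 and 19.2 TPM at st.19, and FOXA2 3 and 4 reads at st.21 against 1 read in each st.19 column. The epidermis markers TP63 and EPCAM summed to 1.35 and 2.44 TPM at st.21 and 4.02 and 3.11 TPM at st.19, with 0 EPCAM reads in st.21 replicate 1 and 0 TP63 reads in st.21 replicate 2, where the TPM is the prior count alone. The cell source of the SHH and IHH reads was not tested.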

How the data were processed

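The study names sequencing at Arraystar and, in addition, a nerve batch prepared with the TruSeq Stranded mRNA kit. Its text does not say whether these columns were made with that kit. Reads were aligned by the authors with HISAT2 and counted with featureCounts, whose strand setting is not given in the sources used here. The authors deposited log2 TPM values with a prior count added, using edgeR 3.42.4, and each column summed to 1000000 TPM. Whole reads and counted lengths were worked out from these values for all 15289 genes (tolerance 0.0001 reads, lengths up to 150000 nt). The depth of each column was set with the lengths of 3626 genes in a supplementary table of the study, of which no other column was used, and all 3626 came out as listed. The procedure was tested on simulated data.

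A gene was kept where 2 or more columns reached 1 TPM, which left 15100. The change is the difference of mean log2 TPM, st.21 minus st.19, and changes past 1 in size were counted. With 1 sample per stage no test across genes was run. Intervals are exact (Clopper-Pearson for changes, conditional for ratios), and reads without molecular identifiers are not independent molecules. Symbols of 15266 genes matched the RefSeq table of CAS_Tse_1.0, which gave positions and overlaps.

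The members and lists were chosen with earlier results of these data known. All members are named, in each pathway list the genes past 1 and up to 2 further genes of highest mean TPM, and in each cell type list up to 3 of highest mean TPM and any marker at 0. JAG2, BCL2 and PDGFRA are named besides. Some genes of the cell type lists, and the sums that rest on them, are not reported here. Settings tried besides were quantile normalization, median centring, library sizes from the authors' prior counts, TPM sums of protein-coding genes or without mitochondrial genes, a pseudocount of 1, filters and leaving out each column. The sum without the rRNA gene and the ratios to PTCH1 were chosen after seeing the data. Software was Python 3.11.15 with scipy 1.17.1, numpy 2.4.6, pandas 2.3.3 and, for plots, matplotlib 3.10.9.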

Additional observations from a re-analysis of the deposited data

How the results depend on the processing

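The count of 2 Hedgehog genes above a log2 change of 1 became 1 with quantile normalization, where SMO came to 0.90. It became 0 with the TPM sum of protein-coding genes or the sum without the rRNA gene, which was chosen after seeing the data. All genes above 1 were then 2060 of 15100 with quantile normalization, 1045 of 14368 with protein-coding genes and 1070 of 15225 without the rRNA gene. Leaving out 1 column gave 0 to 4 such genes, while all genes above 1 ran from 1735 to 3800 of 15100. The count of 0 Hedgehog genes below −1 became 1 with either of these 2 sums, where PTCH1 came to −1.29 and −1.34. All genes below −1 were then 3590 of 14368 with protein-coding genes and 4183 of 15225 without the rRNA gene. Leaving out 1 column gave 0 to 1 Hedgehog genes below −1, while all genes below −1 ran from 920 to 2393 of 15100. The median of the 7 genes was 0.15 with protein-coding genes, 0.11 without the rRNA gene, and 0.24 to 1.10 on leaving out 1 column. PTCH1 was lower at st.21 in every setting run, from −1.34 to −0.50. The median of all genes, 0.06 as deposited, shifted as well. It was −0.47 with protein-coding genes, −0.52 without the rRNA gene, and −0.21 to 0.33 on leaving out 1 column. The shift without the rRNA gene follows mainly from the share of that gene in the sum of each column. Why this share differed between columns was not tested, and neither was the cause of the other shifts. No paired analysis was possible because the results come from no test and each stage is 1 sample. The reads per gene limit IHH most, with 6 reads in each st.21 column.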
